A study of Mus musculus with 4 samples.

Results

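Interferon-stimulated genes outside the MHC class I family were compared between rib chondrocytes labelled Senp6-Mut and control chondrocytes, replicate by replicate. The set holds 39 genes that were chosen by name, and the symbol of 38 of them was found in the gene tables, out of 18298 genes that had reads in any of the 4 samples. SENP6 is a protease that removes SUMO chains from proteins. Chondrocytes, the cells that make cartilage, were taken from the ribs of C57BL/6 embryos at E18.5 and grown in culture to passage 1. The WT group (2 samples) had the genotype Senp6f/f, in which Senp6 is floxed and intact, and the Senp6-Mut group (2 samples) had the genotype Dermo1-Cre;Senp6f/f. Dermo1-Cre is a recombinase driven from the Twist2 (Dermo1) locus in mesenchymal progenitors of bone and cartilage, and the labels give no Cre for the WT group. Polyadenylated RNA was sequenced, and the authors deposited read counts per gene and RPKM, the count scaled by the length of the gene and by the reads on genes. The reads on the tested genes ran from 21007449 to 30983806 per sample, and each member had between 10 and 3504 reads in a sample. In 19 members at least 90% of the gene length was covered in all samples, and the lowest coverage of a member was 19.3%.

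Interferons are secreted proteins that cells release when they sense foreign or misplaced nucleic acid. Type I interferons bind the receptor of IFNAR1 and IFNAR2, whose kinases JAK1 and TYK2 phosphorylate STAT2. STAT2 and IRF9 are subunits of the complex ISGF3, which binds a DNA element made of repeated GAAA tetramers, the interferon-stimulated response element. Type II interferon acts through IFNGR1 and IFNGR2 and leads to binding of a palindrome with the arms TTC and GAA. The induced genes encode antiviral enzymes, nucleic acid sensors, GTPases, chemokines and the factors of the pathway itself, and many of them have a low tonic expression in cells that were given no interferon.

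Promoters are shown because many of these genes hold the response element there. RefSeq promoters (build GRCm38.p6, 250 bases before to 50 bases after the start of the gene) were matched for 29 members. The pair of tetramers GAAANNGAAA was found on either strand in 18 of the 29 (62.1%), against 3.64% of the promoters of 11153 tested genes and 3.99% of 27025 promoters of all genes. The palindrome TTCNNNGAA is the same pattern on both strands and was searched on the strand of the gene. It was found in 8 of the 29 (27.6%), against 8.22% of the promoters of tested genes and 9.55% of all. Stretches of the 2 motifs can overlap each other. The files were made on build mm9, and no position was taken from them. The following promoters belong to the members with the 3 highest mean RPKM among those that hold the pair, with the pair in capitals and each sequence 5′ to 3′ on the strand of the gene.
Bst2, chr8:71537423-71537722, minus strand: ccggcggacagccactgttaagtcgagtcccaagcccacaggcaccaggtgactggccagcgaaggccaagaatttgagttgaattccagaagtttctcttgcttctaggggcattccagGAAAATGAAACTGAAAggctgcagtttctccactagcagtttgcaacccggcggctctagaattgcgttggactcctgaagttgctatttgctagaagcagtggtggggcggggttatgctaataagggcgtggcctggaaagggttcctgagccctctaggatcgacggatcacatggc
Isg15, chr4:156200769-156201068, minus strand: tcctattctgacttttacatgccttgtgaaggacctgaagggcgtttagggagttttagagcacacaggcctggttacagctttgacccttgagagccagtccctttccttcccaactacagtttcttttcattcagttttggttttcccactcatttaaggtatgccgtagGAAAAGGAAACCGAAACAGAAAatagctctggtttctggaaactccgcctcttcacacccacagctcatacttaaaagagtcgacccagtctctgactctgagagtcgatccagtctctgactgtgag
Stat2, chr10:128270248-128270547, plus strand: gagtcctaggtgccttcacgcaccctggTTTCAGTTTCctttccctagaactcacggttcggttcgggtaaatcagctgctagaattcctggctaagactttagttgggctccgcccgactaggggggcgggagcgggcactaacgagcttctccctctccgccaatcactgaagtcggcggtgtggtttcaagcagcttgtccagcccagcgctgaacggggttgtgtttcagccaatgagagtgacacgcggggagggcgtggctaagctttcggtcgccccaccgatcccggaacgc
Isg15 held 3 matches that overlap in 1 run, the last of which ended 56 bases before the start of the gene. Bst2 held 2 overlapping matches, the nearer of which ended 114 bases before the start. Stat2 held 1 match, on the opposite strand and 212 bases from the start. A match is a run of letters and does not show that a factor is bound there.

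All 38 members had at least 10 reads in at least 2 samples and were tested. The edgeR quasi-likelihood test was fitted to 14123 genes with Benjamini-Hochberg adjustment over all of them. No member passed an adjusted p of 0.05 in either direction (0 of 38, against 0.0% of all tested genes in each direction), and the smallest adjusted p of any gene was 0.0512. At an unadjusted p under 0.05, 5 members were higher in Senp6-Mut (13.2%, against 9.29% of all tested genes) and 0 were lower (against 6.28%). The fitted log2 fold change of Senp6-Mut against WT was above 0 in 33 of 38 members (86.8%, against 51.4% of all tested genes). Its median over the members was 0.41, with quartiles of 0.19 and 0.72, and the median over all tested genes was 0.01. The 5 members below 0 were Ifit2, Irf1, Oas3, Dhx58 and Mx1, and all of them lay between -0.14 and -0.01. The smallest p that 2 against 2 samples allow in an exact two-sided permutation test of one gene is 0.333. The labels do not say that the cultures came from separate embryos. By the sex-linked genes given below, the 2 Senp6-Mut samples were of opposite sex and so came from different embryos. For the WT samples, which had the same sex, this cannot be told. The p-values thus measure the spread between these samples.

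**Figure D1:**
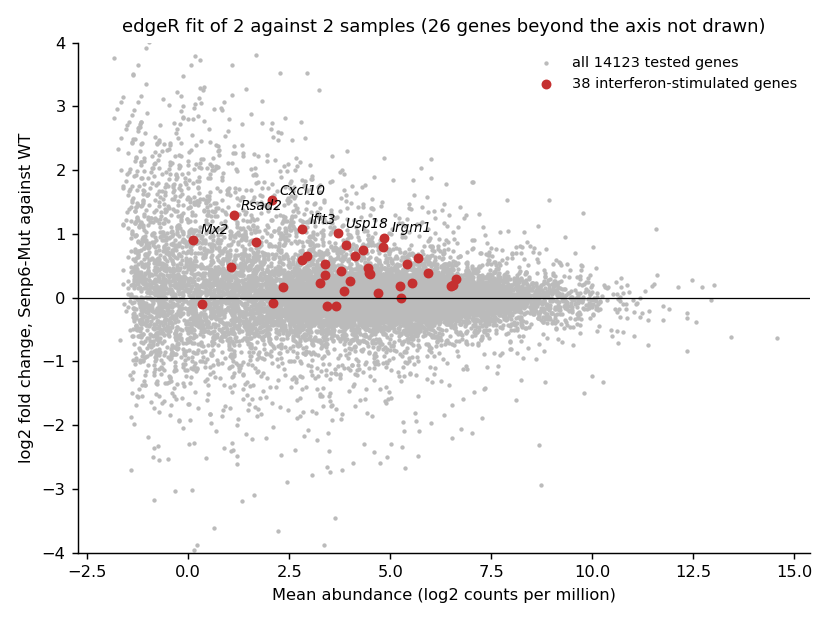
Fitted log2 fold change of Senp6-Mut against WT (vertical axis) against mean abundance in log2 CPM (counts scaled to library size) (horizontal axis) for 14123 tested genes in grey and 38 interferon-stimulated genes in red. The red points lie inside the cloud of all genes, and 33 of them are above 0, while 26 genes beyond the vertical axis are not drawn.

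Within Senp6-Mut, replicate 2 minus replicate 1 had a median of 0.60 over these genes on the log2 scale. Within WT, replicate 1 minus replicate 2 had a median of 0.55. These are differences of single samples, with the sign taken from the data. The fitted difference between the genotypes, with 2 samples in each, had a median of 0.41 and is another measure. Between single samples of the 2 genotypes the medians ran from -0.18 to 1.06. After TMM scaling, Senp6-Mut replicate 2 had the highest level of the 4 samples in 32 members (84.2%, against 26.2% of all tested genes), and WT replicate 2 had the lowest level in 31 members (81.6%, against 21.0%). Both held in 28 members (73.7%, against 8.99% of all tested genes). The 6 members with another highest sample were Ifit2 and Mx1, highest in WT replicate 2, and Oas2, Oas3, Dhx58 and Parp14, highest in WT replicate 1. The summed RPKM of the members was 341 and 246 in WT replicates 1 and 2 and 323 and 510 in Senp6-Mut replicates 1 and 2. WT replicate 1 and Senp6-Mut replicate 1 thus lay between the other samples, and the groups overlapped.

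**Figure D2:**
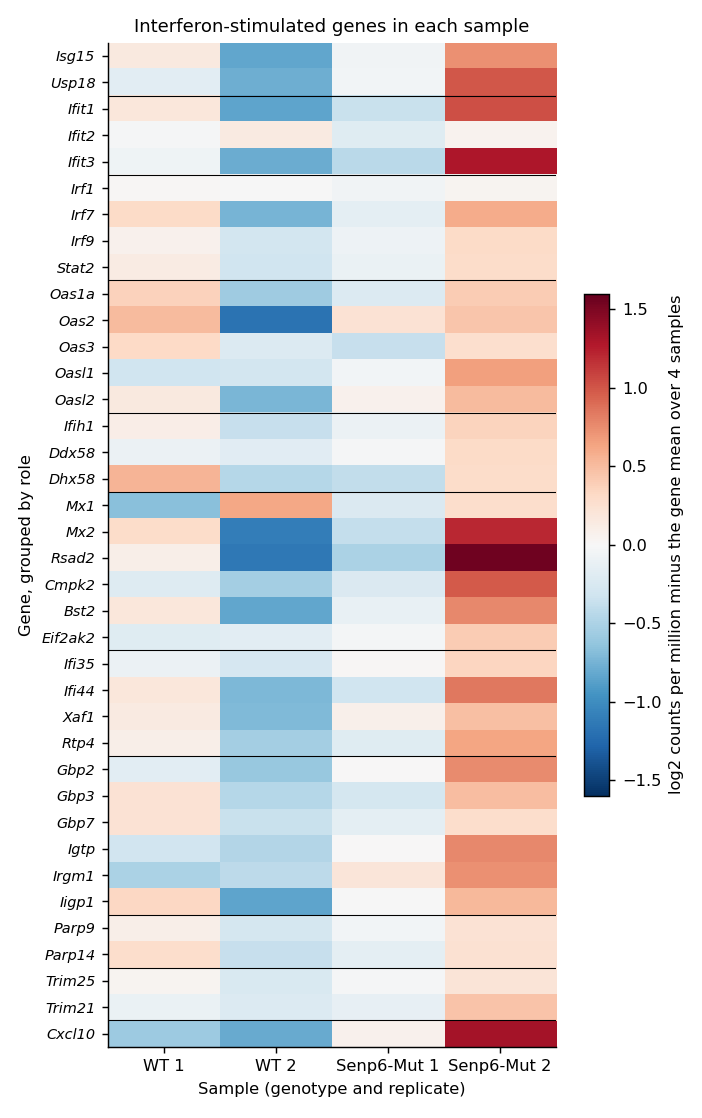
Level of each of the 38 members in each sample, as log2 CPM (counts scaled to library size) minus the mean of that gene over the 4 samples (colour, red above and blue below the mean), with genes in rows grouped by role and samples in columns. The column of Senp6-Mut replicate 2 is red and that of WT replicate 2 mostly blue, with the other columns near the mean.

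Each pair of samples was then compared on the log2 scale, 1 against 1 and without a test. Senp6-Mut replicate 2 was above WT replicate 2 in 36 members, with a median difference of 1.06, and above WT replicate 1 in 34 members, with a median of 0.42. Senp6-Mut replicate 1 was above WT replicate 2 in 34 members, with a median of 0.33. Against WT replicate 1, however, Senp6-Mut replicate 1 was lower in 28 members and higher in 10, with a median of -0.18. These 10 were Usp18, Oasl1, Ddx58, Mx1, Eif2ak2, Ifi35, Gbp2, Igtp, Irgm1 and Cxcl10. Between replicates of one genotype, Senp6-Mut replicate 2 was above replicate 1 in 38 of 38 members (52.1% of all tested genes), with a median of 0.60 and a range from 0.11 for Irf1 to 2.07 for Rsad2. WT replicate 1 was above replicate 2 in 33 of 38 members (49.5% of all tested genes), with a median of 0.55. The members with the opposite order in WT were Ifit2, Oasl1, Mx1, Eif2ak2 and Irgm1. Across the 38 members, which share libraries and are not independent replicates, the difference within Senp6-Mut and that within WT had a Pearson r of 0.36.

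**Figure D3:**
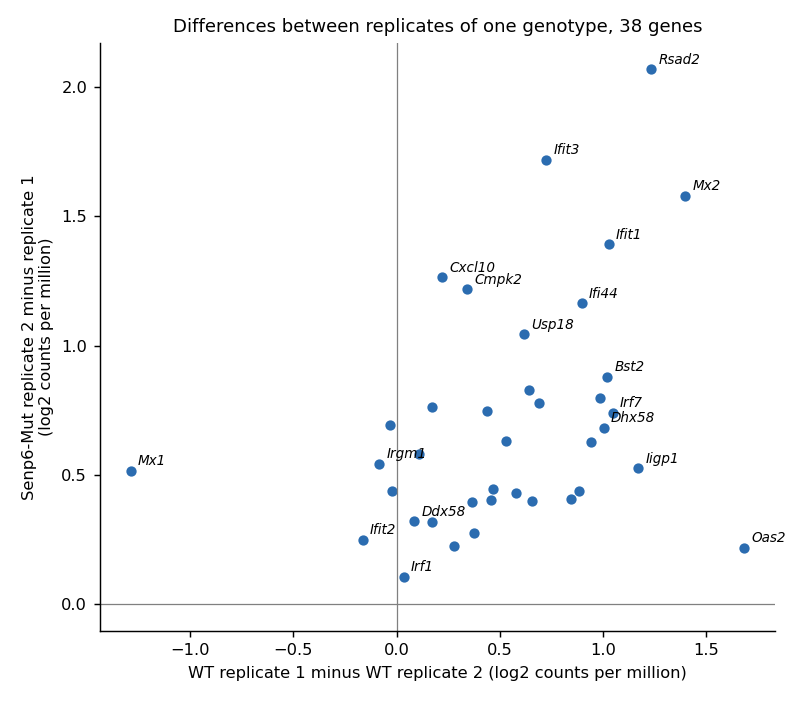
Difference between WT replicates 1 and 2 (horizontal axis) and between Senp6-Mut replicates 2 and 1 (vertical axis), in log2 CPM (counts scaled to library size), with 1 point for each of the 38 members. All points lie above 0 on the vertical axis, and 33 lie to the right of 0.

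Both Senp6-Mut samples had a higher RPKM than both WT samples in 11 members (28.9%), a share close to the 28.3% of all tested genes, and in 0 members were both lower (against 19.2%). The 11 were Usp18, Oasl1, Ddx58, Cmpk2, Eif2ak2, Ifi35, Gbp2, Igtp, Irgm1, Trim21 and Cxcl10. After TMM scaling the groups overlapped in Cmpk2 and Trim21. Senp6-Mut replicate 1 minus WT replicate 1 was then -0.03 and -0.02 on the log2 scale. Of the 11, 5 had an unadjusted p under 0.05, and they belonged to the GTPases, the chemokine and the ISG15 system.

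The GTPases of the GBP and IRG families attack the vacuoles of intracellular pathogens, and 6 members belong to them. All 6 had a fitted log2 fold change above 0, with a median of 0.61, and 3 of 6 had both Senp6-Mut samples above both WT, against 28.3% of all tested genes. Irgm1, a regulator of the other IRG proteins, had an RPKM of 8.23 and 9.07 in WT and 13.8 and 20.6 in Senp6-Mut. Both Senp6-Mut values exceeded both WT values by more than the WT replicates differed. Its log2 fold change was 0.94 (SE 0.20, adjusted p = 0.113 by edgeR), the smallest p of the members. Igtp had an RPKM of 5.30 and 4.89 in WT and 6.82 and 11.9 in Senp6-Mut, a log2 fold change of 0.83 (SE 0.27, adjusted p = 0.222 by edgeR). Gbp2, a guanylate-binding protein, had an RPKM of 9.19 and 7.04 in WT and 10.8 and 18.54 in Senp6-Mut, a log2 fold change of 0.80 (SE 0.28, adjusted p = 0.233 by edgeR). Without Senp6-Mut replicate 2 the log2 fold change was 0.40 for Igtp and 0.39 for Gbp2, and without Senp6-Mut replicate 1 it was 1.16 and 1.13. Igtp shares 12.3% of its 50-base stretches with other genes, mostly Irgm2, and Gbp7 shares 12.8%. For Igtp and Gbp2, Senp6-Mut replicate 1 was nearer to WT than to replicate 2 of its own group. Iigp1, an effector GTPase of the IRG family, was at 4.97 and 2.30 in WT and 4.07 and 6.02 in Senp6-Mut. Gbp3 was at 3.99 and 2.57 in WT and 2.90 and 5.10 in Senp6-Mut, and its neighbour Gbp7 at 2.88 and 2.01 in WT and 2.29 and 3.17 in Senp6-Mut. These 3 genes had WT replicate 1 above Senp6-Mut replicate 1, so their groups overlapped.

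Cxcl10, the chemokine that draws T cells through the receptor CXCR3, had an RPKM of 1.95 and 1.74 in WT and 3.20 and 7.90 in Senp6-Mut. The WT samples were alike and the Senp6-Mut samples far apart, with replicate 2 the higher. The log2 fold change was 1.53 (SE 0.45, adjusted p = 0.181 by edgeR), the largest among the members with all 4 samples. With a sample left out it ran from 0.77 without Senp6-Mut replicate 2 to 2.04 without Senp6-Mut replicate 1, and without WT replicate 1 Rsad2 and Mx2 were larger.

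ISG15 is a ubiquitin-like protein that is joined to other proteins, and USP18 takes it off and also dampens the type I receptor. Usp18 had an RPKM of 5.67 and 3.85 in WT and 6.37 and 13.5 in Senp6-Mut, with a log2 fold change of 1.01 (SE 0.38, adjusted p = 0.268 by edgeR). Leaving out 1 sample moved it between 0.40, without Senp6-Mut replicate 2, and 1.44, without Senp6-Mut replicate 1. Isg15 had an RPKM of 23.1 and 12.2 in WT and 20.7 and 36.8 in Senp6-Mut, with a log2 fold change of 0.65 (SE 0.38, adjusted p = 0.477 by edgeR). Isg15 in Senp6-Mut replicate 1 lay below WT replicate 1, and with a sample left out its log2 fold change was between 0.205 and 1.22. The Isg15 promoter holds the 3 overlapping matches printed above.

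The IFIT proteins bind foreign RNA ends. Ifit1 had an RPKM of 7.31 and 3.73 in WT and 5.21 and 14.0 in Senp6-Mut. Ifit3 was at 2.72 and 1.70 in WT and 2.20 and 7.44 in Senp6-Mut. In both genes Senp6-Mut replicate 2 stood alone above the other samples. Their log2 fold changes were 0.75 (SE 0.50) and 1.07 (SE 0.56). Ifit2 had another order, at 3.02 and 3.53 in WT and 2.79 and 3.40 in Senp6-Mut, although it is near Ifit3 in the genome. Of the 50-base stretches of the Ifit3 transcript, 51.2% also occur in other genes, mostly Ifit3b, so the reads of these 2 genes may not be told apart.

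Among transcription factors of the pathway, STAT2 and IRF9 belong to ISGF3, IRF7 drives interferon genes, and IRF1 responds to type II interferon. Stat2 had an RPKM of 21.5 and 16.3 in WT and 18.8 and 25.6 in Senp6-Mut, and Irf9 had 18.1 and 14.7 in WT and 16.9 and 22.8 in Senp6-Mut. Irf7 was at 13.4 and 6.73 in WT and 10.1 and 17.3 in Senp6-Mut. These 3 genes shared the order of most members, with Senp6-Mut replicate 2 highest and WT replicate 2 lowest. Irf1 differed little between samples, at 17.6 and 17.9 in WT and 17.3 and 19.1 in Senp6-Mut, with a log2 fold change of -0.01 (SE 0.13, adjusted p = 0.978 by edgeR).

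The OAS enzymes make the oligoadenylates that activate RNase L. Oasl2, an OAS-like protein with ubiquitin-like domains, had an RPKM of 13.8 and 7.78 in WT and 13.5 and 18.7 in Senp6-Mut. Oasl1, which lies near Oasl2, was at 2.62 and 2.79 in WT and 3.31 and 5.50 in Senp6-Mut and did not overlap. Oas1a was at 3.22 and 1.74 in WT and 2.22 and 3.52 in Senp6-Mut, and it shares 57.6% of its 50-base stretches with other genes, mostly Oas1g, so its level is uncertain. Oas3 was at 1.06 and 0.762 in WT and 0.684 and 1.09 in Senp6-Mut. Reads covered only 19.27% and 22.95% of the Oas3 length in WT and 24.4% and 46.5% in Senp6-Mut, so its level rests on part of the gene. Of the 5 members of the family, 1 had both Senp6-Mut samples above both WT, against 28.3% of all tested genes. The median log2 fold change of the family was 0.48.

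The cytosolic sensors RIG-I (Ddx58) and MDA5 (Ifih1) detect viral RNA, and LGP2 (Dhx58) modulates both. Ddx58 had an RPKM of 17.9 and 17.5 in WT and 19.6 and 25.1 in Senp6-Mut and did not overlap. Ifih1 was at 2.96 and 2.23 in WT and 2.68 and 3.75 in Senp6-Mut. Dhx58 was highest in a WT sample, at 6.02 and 3.12 in WT and 3.26 and 5.37 in Senp6-Mut. Ddx58 and Ifih1 thus shared the order of most members, with Senp6-Mut replicate 2 highest and WT replicate 2 lowest. Dhx58 also had WT replicate 2 lowest but differed in its highest sample. The log2 fold changes of Ddx58, Ifih1 and Dhx58 were 0.29, 0.26 and -0.14.

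Among antiviral effectors, Bst2, the tetherin that holds budding virus at the cell surface, was the most abundant member. It had an RPKM of 60.4 and 31.0 in WT and 50.9 and 96.0 in Senp6-Mut, and its log2 fold change was 0.63 (SE 0.39, adjusted p = 0.509 by edgeR). WT replicate 1 was thus above Senp6-Mut replicate 1, and with a sample left out the log2 fold change was between 0.13 and 1.22. Eif2ak2, the kinase PKR that stops translation upon sensing RNA duplexes, was at 11.6 and 12.3 in WT and 13.5 and 18.8 in Senp6-Mut. Rsad2, or viperin, which makes a chain-terminating nucleotide, was at 0.440 and 0.192 in WT and 0.298 and 1.30 in Senp6-Mut. Rsad2 had 35, 19, 35 and 139 reads in the same order, and its log2 fold change of 1.29 (SE 0.74, adjusted p = 0.470 by edgeR) came with the widest difference between Senp6-Mut replicates. The other members under an RPKM of 1 in 3 or more samples were Oas2, Mx1, Mx2 and Cmpk2, which lies near Rsad2. Their RPKM ran from 0.158 for Mx2 in WT replicate 2 to 1.81 for Cmpk2 in Senp6-Mut replicate 2, and Mx1 was the gene furthest from the common order, at 0.207 and 0.535 in WT and 0.291 and 0.429 in Senp6-Mut. C57BL/6 mice carry a defective Mx1 gene.

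The remaining members are of mixed roles. Rtp4, a chaperone of membrane receptors that shares 13.6% of its stretches with other genes, was at 13.6 and 9.02 in WT and 11.5 and 21.0 in Senp6-Mut. Ifi44, a further gene induced by interferon, was at 2.40 and 1.34 in WT and 1.76 and 4.06 in Senp6-Mut. Senp6-Mut replicate 2 stood out in both. Ifi35, a partner of the protein NMI that shares 10.7% of its stretches, was at 14.7 and 13.6 in WT and 16.6 and 21.2 in Senp6-Mut, and Xaf1, an antagonist of the inhibitor of apoptosis XIAP, was at 4.03 and 2.34 in WT and 4.001 and 5.44 in Senp6-Mut. Parp9 and Parp14, encoded near each other, are of the ADP-ribosyltransferase family. Parp9 was at 10.8 and 8.70 in WT and 10.3 and 12.8 in Senp6-Mut. Parp14 was at 4.14 and 2.73 in WT and 3.17 and 4.29 in Senp6-Mut. Trim25, a ubiquitin ligase that acts on RIG-I, was at 16.6 and 14.3 in WT and 16.6 and 19.9 in Senp6-Mut. Trim21, the Fc receptor of the cytosol, was at 3.31 and 3.20 in WT and 3.38 and 5.19 in Senp6-Mut. By RPKM, Ifi35 and Trim21 did not overlap between the groups and the others did, and Trim21 overlapped after TMM scaling. The symbol Ifi27 was not found, but its Entrez Gene identifier was listed under the symbol Ifi27l1, with an RPKM of 43.2 and 37.6 in WT and 36.3 and 52.1 in Senp6-Mut, and this gene was kept outside the 38.

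Members with and without the tetramer pair in the matched promoter were also set side by side. The median log2 fold change was 0.51 over the 18 with the pair and 0.40 over the 11 without it. The median difference of Senp6-Mut replicate 2 from replicate 1 was 0.69 with the pair and 0.41 without it. The difference of WT replicate 1 from replicate 2 had a median of 0.50 with the pair and 0.34 without it. These are descriptions, and members that lie near each other may share their control. Of the 36 members placed in the genome, 13 fell in 6 runs of neighbours, which can have other genes between them. The runs were Rsad2 and Cmpk2, Parp14 and Parp9, Ifit2 and Ifit3, Oasl2 and Oasl1, Oas2 and Oas3, and Gbp7 with Gbp3 and Gbp2.

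The rest of the pathway was read from a list of 84 genes grouped by role, of which 70 were found and 68 tested. None passed an adjusted p of 0.05 in the edgeR fit of 14123 genes. At an unadjusted p under 0.05 in that fit, 9 were higher and 2 lower in Senp6-Mut. The shares of all tested genes given above were 9.29% and 6.28%. The median log2 fold change was 0.09, with 40 genes above 0 and 28 below. No interferon ligand was detected above a few reads. Of 14 ligands, 13 had no read in any sample, and a count of 0 allows up to 3 reads. Ifnz, of the interferon zeta family, had 4 reads in each WT sample and 7 in each Senp6-Mut sample and was not tested.

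The receptors of type I interferon overlapped between the groups. Ifnar1 had an RPKM of 18.9 and 20.3 in WT and 19.4 and 19.3 in Senp6-Mut, and Ifnar2 had 20.7 and 19.5 in WT and 18.51 and 19.7 in Senp6-Mut. Ifngr1, of the type II receptor, was at 16.9 and 17.3 in WT and 19.04 and 18.45 in Senp6-Mut. Its partner Ifngr2 was at 28.6 and 31.5 in WT and 38.9 and 39.7 in Senp6-Mut, with a log2 fold change of 0.34 (SE 0.12, adjusted p = 0.248 by edgeR). Ifnlr1 (also Il28ra), the receptor of type III interferon, had 6 and 17 reads in WT and 53 and 67 in Senp6-Mut, with a log2 fold change of 2.04 (SE 0.48, adjusted p = 0.123 by edgeR). Il10rb, its partner chain, was at 11.7 and 15.7 in WT and 15.8 and 17.5 in Senp6-Mut. Senp6-Mut replicate 2 differed from replicate 1 by 0.43 in Ifnlr1 and by -0.01 in Ifngr2 on the log2 scale, against the median of 0.60 over the members.

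Of 29 further interferon-stimulated genes that were tested, 18 had a log2 fold change above 0 and 11 below, with a median of 0.21. By RPKM, both Senp6-Mut samples were above both WT in 13 of the 29 and below in 3. Over all tested genes the shares were 28.3% and 19.2%. The genes named in this paragraph were picked by their p or fold change and do not stand for the 29. Tgtp1, a GTPase of the IRG family, had 0 and 3 reads in WT and 42 and 51 in Senp6-Mut, with an adjusted p of 0.0873 by edgeR. Tgtp2 had 14 and 4 reads in WT and 66 and 45 in Senp6-Mut, with an adjusted p of 0.182 by edgeR. The 2 genes are near copies and share 91.4% and 90.6% of their 50-base stretches with other genes, so their levels are uncertain. Pml, the core of nuclear bodies that hold SUMO-modified proteins, had an RPKM of 16.6 and 19.2 in WT and 24.7 and 28.5 in Senp6-Mut. Its log2 fold change was 0.53 (SE 0.13, adjusted p = 0.143 by edgeR). Sp100, another nuclear body protein, was at 3.86 and 3.07 in WT and 2.23 and 2.53 in Senp6-Mut, lower in both Senp6-Mut samples without passing the test (adjusted p = 0.310 by edgeR). Herc6, the ISG15 ligase of the mouse, shares 23.8% of its stretches with other genes and was at 1.70 and 1.74 in WT and 2.68 and 2.70 in Senp6-Mut. Ifit3b had a log2 fold change of 1.04 (SE 0.61) and Gbp4 of 1.20 (SE 0.55), with at most 14 reads of Gbp4 in a sample.

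Regulators with an unadjusted p under 0.05 were Adar, Irf5, Pias1 and Rnaseh2c. Adar, which edits duplex RNA and so keeps it from the sensors, was at 10.3 and 10.3 in WT and 12.3 and 15.0 in Senp6-Mut. Irf5, a factor downstream of innate receptors, was at 1.48 and 1.93 in WT and 2.39 and 3.03 in Senp6-Mut. Pias1, a SUMO ligase, was at 9.88 and 11.4 in WT and 13.5 and 13.8 in Senp6-Mut. Rnaseh2c, a subunit of the nuclease that removes RNA from DNA, was at 38.2 and 27.5 in WT and 23.8 and 24.1 in Senp6-Mut. The groups did not overlap in these 4 genes, which were named for their p on the same samples. Of all tested genes, 28.3% had both Senp6-Mut samples above both WT and 19.2% had both below.

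The targeted gene was read in all samples. Senp6 had an RPKM of 10.84 and 18.02 in WT and 12.02 and 8.07 in Senp6-Mut, with a log2 fold change of -0.56 (SE 0.28, adjusted p = 0.410 by edgeR). The tables hold no counts per exon, so deletion of the floxed exons was not checked. Xist had 2, 5, 3 and 11354 reads in WT replicates 1 and 2 and Senp6-Mut replicates 1 and 2, and Y-linked genes were near 0 in Senp6-Mut replicate 2 alone. The study did not sort embryos by sex. That sample had the female pattern and the other 3 the male pattern, and it is the sample with the highest level of most members. The part of sex in the result was not tested. Without it, the remaining 3 samples are of 1 sex, and the median log2 fold change of the members was 0.03 with 0 members past an adjusted p of 0.05 (against 0.496% of all genes tested in that fit).

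Markers of cell types also differed between samples, and in bulk RNA fewer cells of a type cannot be told apart from less RNA per cell. The summed RPKM of 10 chondrocyte markers was 838 in each WT sample and 407 and 539 in Senp6-Mut. All 10 were lower in both Senp6-Mut samples. For comparison with the marker counts, 28.3% of all tested genes were higher in both Senp6-Mut samples and 19.2% were lower in both. Skeletal muscle markers summed to 89.6 and 25.6 in WT and 146 and 162 in Senp6-Mut, with 5 of 8 higher in both Senp6-Mut samples, and WT replicate 2 was lowest in them as it was in most members. The 11 macrophage markers summed to 25.6 and 23.1 in WT and 13.3 and 17.9 in Senp6-Mut, with 6 lower and 2 (Mrc1 and Cd14) higher in both Senp6-Mut samples. Lyz2 alone was at 11.1 and 7.85 in WT and 2.53 and 4.76 in Senp6-Mut, and Ptprc, the pan-leukocyte marker, was under 0.1 in all samples. Endothelial markers summed to between 0.972 and 1.57 RPKM and lymphocyte markers to between 0.540 and 0.840, with Ms4a1 at 0 reads. Osteoblast markers summed to 172 and 69.9 in WT and 19.2 and 40.6 in Senp6-Mut, with 4 of 6 lower in both. Of 5 erythroid markers the sum was at most 0.367. Within each genotype, the muscle, macrophage and osteoblast sums were higher in WT replicate 1 and in Senp6-Mut replicate 2, as most members were. The part of the chondrocyte, muscle, macrophage, osteoblast and other markers in the result was not tested.

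**Figure D4:**
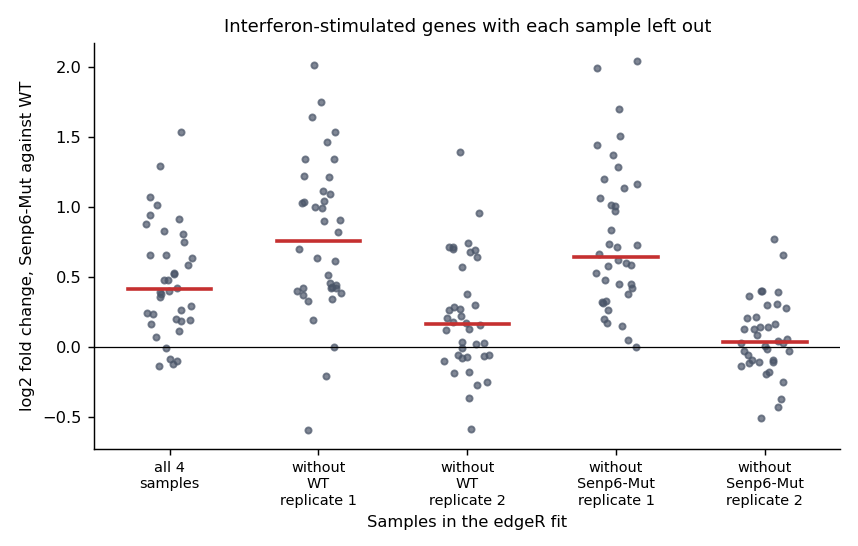
Fitted log2 fold change of Senp6-Mut against WT for each of the 38 members (points) with all 4 samples and with each sample left out in turn, and the median of the members as a red line. The median is 0.41 with all samples, 0.76 without WT replicate 1, 0.16 without WT replicate 2, 0.64 without Senp6-Mut replicate 1 and 0.03 without Senp6-Mut replicate 2.

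The median difference between the genotypes moved with each sample that was left out. Without Senp6-Mut replicate 1 the median log2 fold change of the members was 0.64, and 7 members were higher at an adjusted p under 0.05 (18.4%, against 1.98% of all genes tested in that fit), namely Usp18, Ifit3, Rsad2, Gbp2, Igtp, Irgm1 and Cxcl10. Without WT replicate 1 the median was 0.76, and 3 members passed, namely Oasl2, Xaf1 and Iigp1 (7.89%, against 3.55%). Without WT replicate 2 the median was 0.16 and 25 members were above 0. In that fit 0 members passed, although 9.25% of all genes tested were higher. Without Senp6-Mut replicate 2, 22 members were above 0. In these fits 1 genotype has a single sample, which is assumed to vary like the pair of the other genotype. No member passed in both of the fits that called any (0 shared).

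Irgm1 passed in 3 alternatives, DESeq2, no filter on low counts and without Senp6-Mut replicate 1. Its log2 fold change was between 0.65 and 1.19 over the 4 fits with a sample left out. DESeq2 called Irgm1 (adjusted p = 0.00546) and Cxcl10 (adjusted p = 0.0470), which is 5.26% of members against 3.11% of all tested genes. Without the filter on low counts edgeR called Irgm1 alone (adjusted p = 0.0441), against 1.23% of all genes. With the replicate number as a block 0 members passed, against 0.595%. Over the alternatives with all 4 samples the adjusted p of Irgm1 was between 0.00546 and 0.147, and without Senp6-Mut replicate 2 it was 0.535.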

How the data were processed

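Poly(A) RNA of 2 WT and 2 Senp6-Mut samples was sequenced by BGI. For each gene, the authors deposited the read count without normalization, the RPKM (the count scaled by gene length and by the reads on genes) and the percent of its length under reads, which served only to describe coverage. The submitters' processing notes name mm9 and SAMtools, and the aligner, counter and annotation are not given in the sources used here. Genes absent from a sample's list were given a count of 0. With no stated use of strand, reads of overlapping genes cannot be told apart.

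The counts entered a quasi-likelihood fit in edgeR 4.0.16, run in R 4.3.3 (TMM factors from 0.966 to 1.03, robust estimation, group only) of the 14123 genes that reached 10 counts in 2 or more samples, with Benjamini-Hochberg adjustment of the p-values over all of these. Per-sample log2 values used a prior count of 0.5. DESeq2 1.42.0 and limma 3.58.1 on log2(RPKM + 1) and log2(RPKM + 0.1) were alternatives, with RLE factors, library totals, other filters, a replicate block and each sample left out. The script was tested on simulated data. Replicates of one genotype differed far beyond sampling noise (chi-square over its degrees of freedom of 48.6 in WT and 23.7 in Senp6-Mut) and were counted separately.

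The members, the pathway list and the marker lists were chosen with earlier results of these data known. Per-sample values are given for members that reached an RPKM of 1 in 2 or more samples, or with a log2 fold change of at least 1. Of the pathway list, detected ligands and receptors and genes with an unadjusted p under 0.05 or a log2 fold change of at least 1 in size are named, and 1 gene that the rule names is not reported here. Promoters are those of the 3 members with the highest mean RPKM that hold the tetramer pair. Mx1, Oas2, Mx2 and Cmpk2 fall under the level for per-sample values, and the Mx1 values are given after they were seen.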

Additional observations from a re-analysis of the deposited data

How the results depend on the processing

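The median log2 fold change of the members stayed between 0.39 and 0.48 over the alternatives with all 4 samples and moved between 0.03 and 0.76 when 1 sample was left out. Genes called among all tested were 0 in each direction by edgeR (2199 at an unadjusted p under 0.05), 439 higher and 267 lower by DESeq2, 6 and 2 with library totals only, 225 and 61 without a filter, 84 and 33 with the replicate block, and 68 to 1296 higher and 37 to 1444 lower with a sample left out. Members called higher were 2 by DESeq2, 1 without a filter and 0 to 7 with a sample left out, and members called lower were 0 in every setting run. Other pathway genes called higher were 2 by DESeq2 and 1 without a filter, beside 3.11% and 1.23% of all genes in those fits. DESeq2 called Tgtp1 (adjusted p = 0.00384) and Pml (adjusted p = 0.0420). Without a filter edgeR called Tgtp1 (adjusted p = 0.0240). In the settings with all 4 samples, 0 other pathway genes were called lower. This did not hold in every fit with a sample left out, where 1 genotype has a single sample. Members with both Senp6-Mut samples above both WT numbered 11 by RPKM, 9 by TMM-scaled counts, 32 by raw counts, which follow depth, and 11 to 35 with a sample left out, and those below 0 to 3.

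Irf1 turned to 0.0322 with library totals, 0.0288 in the limma fit with a pseudocount of 1 and 0.0301 with one of 0.1, and Mx1 turned to 0.0423 with limma on log2(RPKM + 0.1). With a sample left out, the log2 fold change ran from -0.59 to 0.44 for Dhx58, -0.0600 to 0.0466 for Irf1, -0.43 to 0.20 for Oas3, -0.60 to 0.69 for Mx1, -0.20 to 0.61 for Gbp3, -0.18 to 0.42 for Gbp7, -0.11 to 1.09 for Ifi44, -0.11 to 1.34 for Ifit1, -0.0290 to 1.69 for Ifit3, -0.0687 to 1.67 for Ifit3b, -0.0843 to 1.11 for Iigp1, -0.0707 to 0.9995 for Irf7, -0.10 to 1.75 for Mx2, -0.27 to 0.70 for Oas1a, -0.19 to 1.54 for Oas2, -0.25 to 0.43 for Parp14, -0.0130 to 0.38 for Parp9, -0.0941 to 2.01 for Rsad2 and -0.0596 to 0.42 for Stat2, and the cause was not tested.

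The difference of replicate 1 from 2 had an r of -0.03 between the genotypes over 14123 genes, so no broad effect of the replicate number was seen. This value cannot show whether the samples were paired by their replicate numbers. With the replicate block the median of the members was 0.44. The depth of 10 to 3504 reads of a member in a sample limits mainly Rsad2, Oas2, Mx1, Mx2 and Cmpk2.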
